A study of Mus musculus with 47 samples.

Results

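The first steps of branched-chain amino acid (BCAA) breakdown are shared by leucine, isoleucine and valine, and 8 genes that carry and regulate them were followed here in the brains of 3xTg mice fed diets low in 1 BCAA. The genes were taken by name for their place in the pathway, with earlier results of these data known: Bcat1 and Bcat2, which encode the cytosolic and mitochondrial transaminases; Bckdha, Bckdhb, Dbt and Dld, which encode the E1 alpha, E1 beta, E2 and E3 subunits of the branched-chain ketoacid dehydrogenase (BCKDH) complex; Bckdk, its kinase; and Ppm1k, its phosphatase. All 8 of 8 were found among the 55416 genes of both count tables, and all 8 passed the filter on low counts in both sexes, in which 22197 genes were tested in males and 20344 in females. The mice were homozygous 3xTg, a model of Alzheimer's disease with mutant human amyloid precursor protein and tau transgenes under the neuronal Thy1 promoter and a mutant presenilin gene, and no non-transgenic brain is among the libraries. Male and female mice received an amino acid-defined Control diet, or the same kind of diet restricted in isoleucine (IleR), leucine (LeuR) or valine (ValR), for 9 months from 6 months of age. There were 14 male libraries (4 Control, 3 IleR, 3 LeuR, 4 ValR) and 23 female ones (6 Control, 5 IleR, 6 LeuR, 6 ValR), and 10 of the 24 male libraries in the labels are not analysed here. A library is named below by its diet and label number, such as Control 4.

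The transaminases move the amino group of a BCAA to a keto acid and are reversible; in the brain Bcat1 is known as the neuronal form and Bcat2 as the form of astrocytes and of most other tissues. The BCKDH complex then removes the carboxyl group from the resulting ketoacids in the mitochondrion, and this step commits them to breakdown. E1 carries out the decarboxylation, E2 passes on the acyl group and forms the core of the complex, and E3 reoxidizes the lipoyl arm of E2 and serves the pyruvate and 2-oxoglutarate dehydrogenases and the glycine cleavage system as well. The kinase encoded by Bckdk phosphorylates E1 alpha and switches the complex off, and the phosphatase encoded by Ppm1k removes the phosphate and switches it on. RNA was measured here; neither the phosphorylation of E1 alpha nor the activity of the complex was.

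The kinase and the phosphatase act on the same short stretch of E1 alpha, so its coding sequence is shown. It lies within 1 exon of Bckdha on the minus strand of GRCm38, at chr7:25631117-25631170, and the capitals mark the codons of the phosphorylated serines, codon 338 and codon 348 of 446 in the reference transcript (GENCODE M21), counted from the start codon.

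Bckdha coding sequence around the phosphorylated serines: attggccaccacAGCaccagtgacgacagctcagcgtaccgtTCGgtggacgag

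Set against this substrate, the data give the RNA of Bckdha and of the other subunits, of the kinase and of the phosphatase in each library.

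Per length, as CPM (counts scaled to a common library total, after TMM normalization) for each kilobase of merged exons, Dld was the most abundant of the 8 genes in every diet and sex and Bcat2 the least, though by the length of the longest coding transcript Dbt was lowest in 5 of the 8 groups. In Control males the order of mean levels per kilobase was Dld at 31.0 ± 1.78 (SD, n = 4), Bckdha at 16.4 ± 1.07, Ppm1k at 13.2 ± 1.00, Bcat1 at 11.8 ± 3.30, Bckdhb at 11.6 ± 1.84, Bckdk at 8.75 ± 0.595, Dbt at 7.15 ± 0.166 and Bcat2 at 4.00 ± 0.229. Ppm1k and Bcat1 overlapped between libraries, as did Bcat1 and Bckdhb, and the other neighbours in this order did not. Control females had Dld at 32.8 ± 2.15 (SD, n = 6), Bckdha at 16.3 ± 1.81, Ppm1k at 12.9 ± 1.80, Bckdhb at 11.7 ± 2.06, Bcat1 at 10.8 ± 3.43, Bckdk at 9.40 ± 0.489, Dbt at 6.00 ± 0.433 and Bcat2 at 3.69 ± 0.523. There the ranges overlapped from Ppm1k down to Bckdk. The core subunit Dbt was thus below the E1 subunits per length, and the mean of the phosphatase was above that of the kinase in the Control groups of both sexes. In the 3 restricted male groups Ppm1k fell from the third place to the sixth, to 9.05 ± 0.415 in IleR, 8.64 ± 0.431 in LeuR and 9.56 ± 0.819 in ValR, and its libraries then overlapped with those of Bckdk, at 9.49 ± 0.214, 9.12 ± 0.306 and 10.1 ± 0.325.

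**Figure D1:**
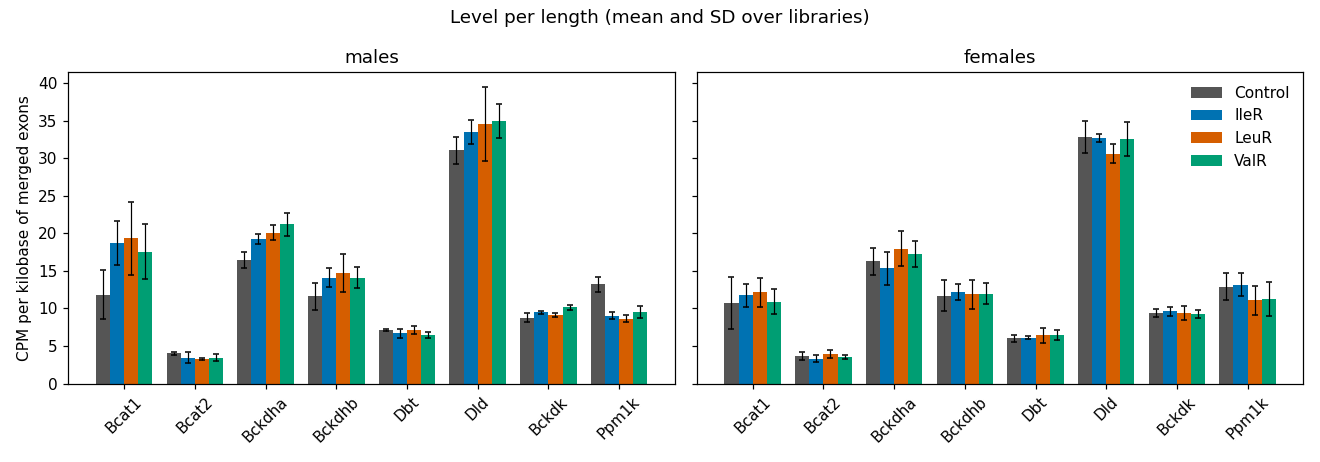
Level of each gene per kilobase of merged exons (y axis, CPM per kilobase) by gene (x axis) and diet (bar colour), males left and females right; bars are means and error bars SD over 3 to 6 libraries. With these lengths Dld is the tallest bar in each group and Bcat2 the shortest, and the Ppm1k bar of Control males, at 13.2, stands above those of the 3 restricted male groups.

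Total counts per library ranged from 12682700 to 25722300 in males and from 10672600 to 21371000 in females. The libraries also differed in which brain regions they held, and in males this differed by diet. Regional content was summarised per library as a hindbrain score, the mean log2 CPM of 10 cerebellum and of 10 brainstem and spinal cord markers minus that of 10 forebrain markers; it ran from -7.84 to -4.96 in Control males, from 1.49 to 3.80 in IleR males, from -4.24 to 3.53 in LeuR males and from 3.52 to 4.77 in ValR males. The summed level of the cerebellum markers was 46.0 to 84.3 CPM in Control males against 1304 to 3496 in IleR, 150.3 to 1342 in LeuR and 1383 to 4486 in ValR, and 10, 8 and 10 of the 10 markers were higher by the test. Forebrain markers summed to 759.9 to 2214 CPM in Control males against 169.5 to 256, 160.2 to 435 and 175 to 202, and 9, 5 and 9 of 10 were lower. Brainstem and spinal cord markers summed to 0.782 to 9.80 CPM in Control males, where Hoxa5 and Hoxc4 were at 0, against 71.7 to 304, 2.77 to 664 and 117 to 584, with 7, 8 and 8 of 10 higher. In females the score ran from -7.81 to 3.74, its range overlapped between all diets, and of the markers tested (all 10 of cerebellum, all 10 of forebrain and 3 of the 10 of brainstem and spinal cord) 0 were called. Diet and regional content cannot be told apart in the male groups, and in bulk tissue fewer cells of a type and less RNA per cell cannot be told apart either.

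Each restricted diet was compared with Control to see whether lowering 1 BCAA in the food was accompanied by a change in the shared steps of its breakdown. In males, by edgeR, Ppm1k fell in all 3 restricted diets, Bckdha rose in LeuR and ValR, and Bckdk rose in ValR, while Bcat2, Bckdhb, Dbt and Dld passed the test in none and Bcat1 missed it narrowly in each. In IleR males 1 of the 8 genes was called, in the lower direction, where 15.3% of all genes tested were called, 6.63% higher and 8.68% lower. In LeuR males 2 were called, 1 higher and 1 lower, against 10.1% of all genes (3.81% higher, 6.33% lower). In ValR males 3 were called, 2 higher and 1 lower, against 23.5% (11.1% higher, 12.4% lower). The share of the members called was thus near that of all genes in IleR and above it in the other 2 diets, on counts of 1 to 3. The median log2 fold change of the 8 genes was 0.11 in IleR, 0.11 in LeuR and 0.19 in ValR, beside 0.043, 0.053 and 0.032 over all genes tested. The 3 comparisons share the same 4 Control libraries.

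**Figure D2:**
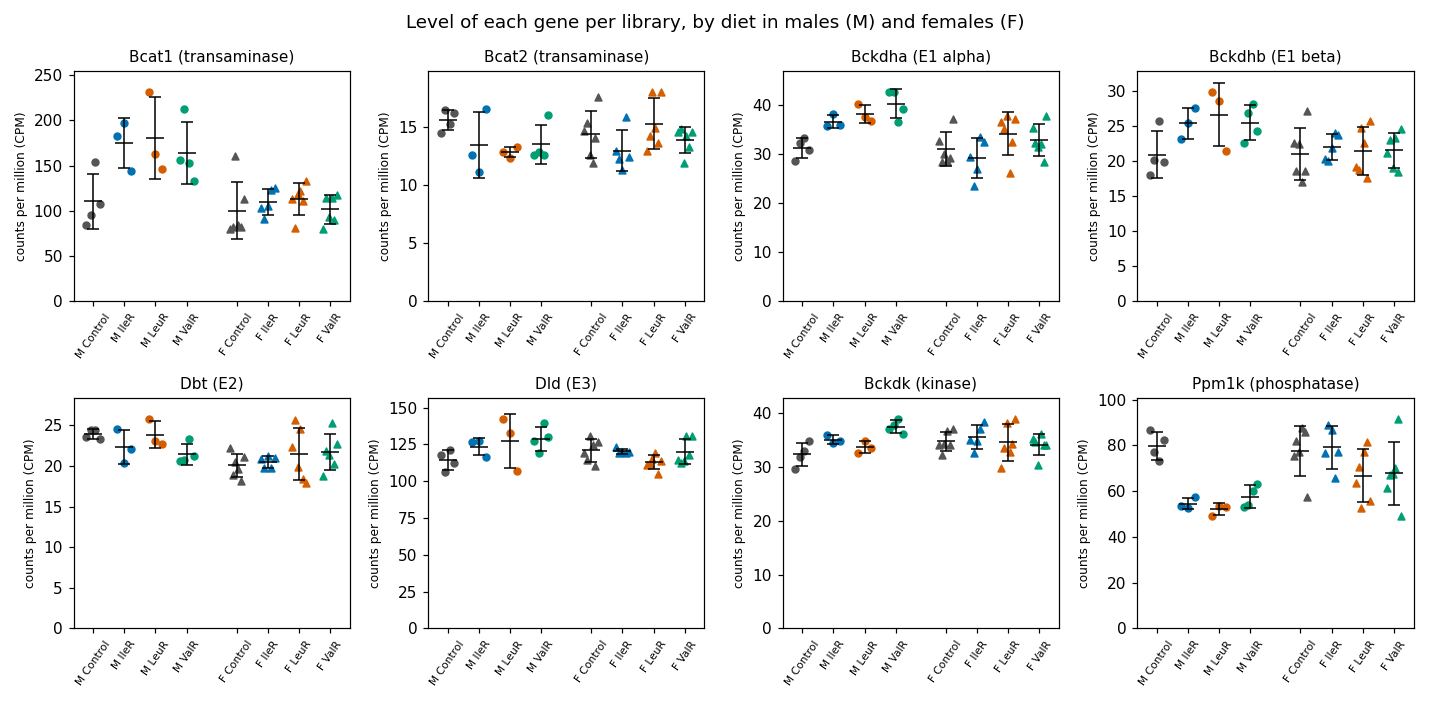
CPM of each gene (y axis, from 0) in every library, by sex and diet (x axis; circles male, triangles female); horizontal bars and whiskers are means and SD. Every restricted male library lies below every Control male library for Ppm1k and above for Bckdha, and female groups overlap for all 8 genes.

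Of the transaminases, Bcat1 had 84.3, 94.9, 154 and 108 CPM in the 4 Control males. The IleR males had 183, 197 and 145 CPM, the LeuR males 232, 163 and 146 and the ValR males 156, 213, 152 and 133. The highest Control library, Control 4, lay inside the range of each restricted diet, and the other 3 Control libraries lay below all restricted libraries. The log2 fold change was 0.67 ± 0.22 (SE) in IleR, 0.71 ± 0.22 in LeuR and 0.57 ± 0.21 in ValR, with edgeR adjusted p = 0.0581, 0.0574 and 0.0626, so that none passed the threshold of 0.05 by edgeR although these were the largest estimates among the 8 genes in the upward direction. Limma voom called it in IleR (adjusted p = 0.0456) and not in LeuR or ValR (0.0512 and 0.0526), and DESeq2 called it in all 3 (0.0335, 0.0233 and 0.0425). Without Control 4 the difference became 0.87 in IleR (edgeR adjusted p = 0.00930), 0.92 in LeuR (0.00830) and 0.77 in ValR (0.0101). Control 4 also had the highest hindbrain score of the Control males, -4.96, and the part of region in its Bcat1 level was not tested. Bcat2 had 14.5, 16.4, 15.3 and 16.2 CPM in Control males, 12.6, 11.1 and 16.6 in IleR, 12.9, 12.4 and 13.3 in LeuR and 12.6, 12.9, 12.6 and 16.1 in ValR. The mean was lower in each restricted group, and the LeuR libraries all lay under the Control libraries. Over all genes tested, 9.48% lay below Control without overlap in LeuR. The Bcat2 differences of -0.22 ± 0.14, -0.28 ± 0.14 and -0.21 ± 0.13 on the log2 scale were not called (edgeR adjusted p = 0.340, 0.229 and 0.293).

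Of the E1 subunits, Bckdha had 28.5, 32.2, 33.2 and 30.7 CPM in Control males. It reached 35.6, 38.1 and 35.9 CPM in IleR, 40.2, 37.5 and 36.7 in LeuR and 42.6, 42.7, 36.5 and 39.1 in ValR. Every restricted library stood above every Control library in all 3 diets. Over all genes tested, 14.8% in IleR, 8.21% in LeuR and 12.7% in ValR stood above Control in the same way. The log2 fold change passed the test in ValR, at 0.37 ± 0.079 (SE; edgeR adjusted p = 0.00461), and in LeuR, at 0.29 ± 0.085 (edgeR adjusted p = 0.0456), and not in IleR, at 0.23 ± 0.085 (edgeR adjusted p = 0.0865). The LeuR call was lost in 12 of 17 alternatives, among them 5 of the 7 fits that left out 1 library and those with a regional or astrocyte score. The ValR call was lost in 4 of 18, the fits with a regional or astrocyte score. Bckdha overlaps B3gnt8, a glycosyltransferase gene on the opposite strand, by 5155 bases; B3gnt8 had 8 to 42 counts per male library, and the strand setting of the counting is not stated. Bckdhb had 18.0, 20.1, 25.7 and 19.8 CPM in Control males, 23.1, 25.5 and 27.6 in IleR, 29.9, 28.5 and 21.4 in LeuR and 22.6, 26.8, 28.1 and 24.3 in ValR. Control 4 again lay among the restricted libraries, and the differences of 0.28 ± 0.14, 0.35 ± 0.14 and 0.28 ± 0.13 were not called (edgeR adjusted p = 0.219, 0.140 and 0.151).

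Dbt, the E2 core, had 23.6, 24.4, 24.4 and 23.4 CPM in Control males, a range narrower than in any other male group. IleR males had 24.6, 20.3 and 22.1 CPM, LeuR males 25.8, 23.1 and 22.7 and ValR males 20.6, 20.7, 23.4 and 21.2. The ValR libraries all lay under the lowest Control library, though by little for the highest of them. Over all genes tested, 13.6% lay below Control without overlap in ValR. The Dbt difference there, -0.16 ± 0.086, was not called (edgeR adjusted p = 0.217). Its differences in IleR and LeuR were -0.10 and -0.0048. Dld, the E3 subunit shared with other complexes, had 118, 106, 121 and 112 CPM in Control males, 126, 127 and 117 in IleR, 142, 133 and 107 in LeuR and 127, 119, 139 and 129.7 in ValR. These groups overlapped, and differences of 0.11 ± 0.10, 0.16 ± 0.10 and 0.17 ± 0.092 were not called (edgeR adjusted p = 0.505, 0.335 and 0.200). In males the estimates were above 0 for Bckdha, Bckdhb and Dld in each diet. Those of Dbt were below 0 in IleR and ValR and near 0 in LeuR. The confidence intervals of Dbt ran from -0.30 to 0.099 in IleR, -0.21 to 0.20 in LeuR and -0.34 to 0.029 in ValR. Each covered 0, so a direction of Dbt apart from the other subunits was not shown. Dbt was not tested against them, and the test called Bckdha alone of the 4 subunits.

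The kinase gene Bckdk had 29.6, 31.8, 33.0 and 34.9 CPM in Control males. The level was 35.9, 34.4 and 34.9 CPM in IleR, 32.6, 34.9 and 33.6 in LeuR and 37.0, 37.9, 38.9 and 36.1 in ValR. The 4 ValR libraries lay above all Control libraries, and those of IleR and LeuR overlapped with the Control ones. Over all genes tested, 12.7% stood above Control without overlap in ValR. The log2 fold change was 0.21 ± 0.071 (SE) in ValR and passed the test narrowly (edgeR adjusted p = 0.0449); it was 0.12 ± 0.076 in IleR and 0.059 ± 0.077 in LeuR (edgeR adjusted p = 0.341 and 0.665). The ValR call was lost in 15 of 18 alternatives, with limma voom at an adjusted p of 0.0501.

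The phosphatase gene Ppm1k was the one member called in all 3 restricted diets in males. Control males had 86.8, 76.9, 73.0 and 82.4 CPM. IleR males had 53.5, 52.7 and 57.4 CPM, LeuR males 49.0, 53.7 and 53.3 and ValR males 53.0, 53.9, 60.04 and 63.3. The 10 restricted libraries, from 49.0 to 63.3, all lay below the 4 Control libraries, from 73.0 to 86.8. Over all genes tested, 14.5% in IleR, 9.48% in LeuR and 13.6% in ValR lay below Control without overlap. The group means were 79.8 ± 6.04 (SD, n = 4) in Control, 54.5 ± 2.50 (SD, n = 3) in IleR, 52.0 ± 2.59 (SD, n = 3) in LeuR and 57.6 ± 4.93 (SD, n = 4) in ValR. On the log2 scale Ppm1k changed by -0.55 ± 0.089 (SE) in IleR, -0.62 ± 0.089 in LeuR and -0.47 ± 0.082 in ValR, with edgeR adjusted p = 0.00176, 0.00359 and 0.00116. Leaving out any 1 library kept each of these calls, and so did limma voom and DESeq2; fitting Control and LeuR alone ended the LeuR call (edgeR adjusted p = 0.0761). The fall was not called where a score of regional content entered the fit, as given with the regional values.

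**Figure D3:**
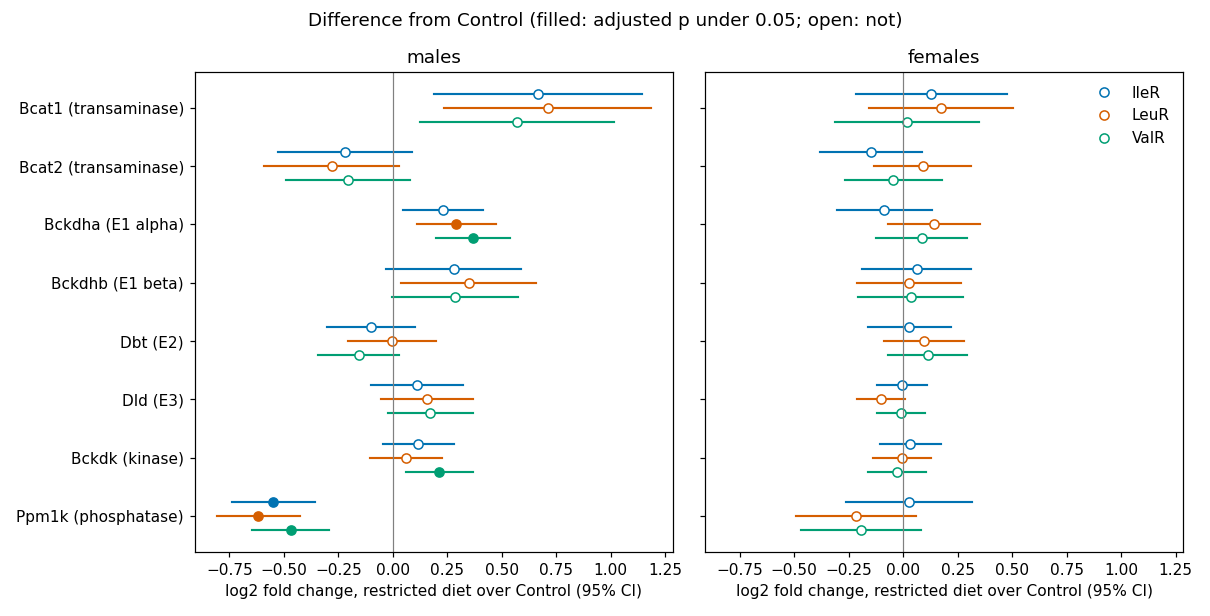
Log2 fold change of each gene in each restricted diet over Control (x axis, points, with 95% confidence intervals) for males (left) and females (right); filled points passed an adjusted p of 0.05 over all genes. The male intervals of Ppm1k lie wholly below 0, the filled male points are those of Ppm1k in 3 diets, Bckdha in 2 and Bckdk in 1, and all female intervals cover 0.

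No difference between the restricted diets was called for any of the 8 genes. By edgeR 0 members were called between IleR and LeuR, ValR and LeuR, or ValR and IleR in males, with 0 at an unadjusted p under 0.05, where 11.3%, 23.9% and 2.83% of all genes were. Limma voom and DESeq2 called 0 members as well. Over all genes 2.75% were called between ValR and LeuR and 0% in the other pairs. Bckdk came nearest, 0.15 ± 0.077 higher in ValR than in LeuR (edgeR adjusted p = 0.241; 95% interval -0.012 to 0.32). The Ppm1k difference between ValR and LeuR had an interval from -0.043 to 0.34, and differences within these bounds are compatible with the data. In females 0 members were called between restricted diets by any of the 3 tools, as over all genes (0%), and 2 members, Bckdha and Bcat2, had an unadjusted p under 0.05 between IleR and LeuR, where 6.14% of all genes did.

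The kinase and the phosphatase were set against each other and against the subunits within each library, as differences of log2 CPM; these ratios carry no test. The kinase-to-phosphatase ratio, Bckdk minus Ppm1k, was -1.55, -1.27, -1.14 and -1.24 in the 4 Control males. It was -0.57, -0.61 and -0.71 in IleR, -0.59, -0.62 and -0.66 in LeuR and -0.52, -0.51, -0.62 and -0.81 in ValR. Every restricted male library lay above every Control male library, and the means moved from -1.30 ± 0.17 (SD, n = 4) to -0.63 ± 0.073 (n = 3), -0.62 ± 0.039 (n = 3) and -0.61 ± 0.14 (n = 4). The shift of 0.67, 0.68 and 0.68 was the same size in the 3 diets to within 1 SD, and the larger part of it came from Ppm1k. The 3 shifts share the same 4 Control libraries, so their likeness is partly built in, and differences between them were not tested. Against the mean of the 4 subunits, Ppm1k went from 1.12 ± 0.19 in Control males to 0.45 ± 0.063 in IleR, 0.32 ± 0.21 in LeuR and 0.49 ± 0.12 in ValR, again with no overlap with Control. Bckdk against the subunits was -0.17 ± 0.10 in Control males and -0.19 ± 0.029, -0.31 ± 0.17 and -0.13 ± 0.022 in the restricted groups, and all of these overlapped. The male groups were thus apart for the phosphatase against the subunits and overlapped for the kinase against the subunits. The transaminase ratio, Bcat1 minus Bcat2, had means that went from 2.77 ± 0.38 to 3.70 ± 0.53, 3.77 ± 0.36 and 3.57 ± 0.41; the LeuR libraries alone cleared all Control libraries.

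**Figure D4:**
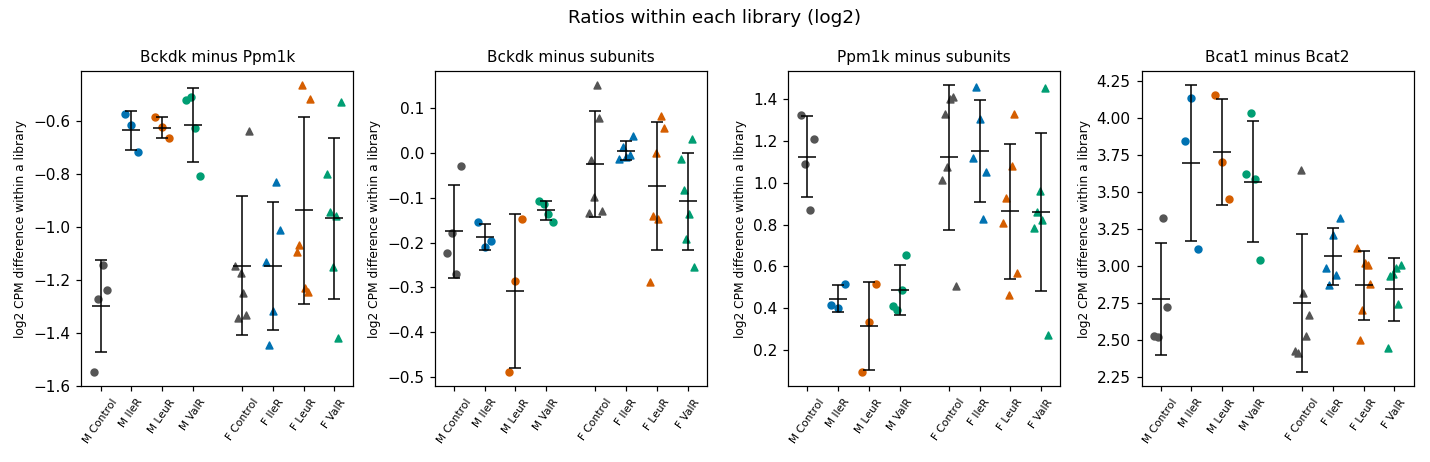
Differences of log2 CPM within a library (y axes; subunits are the mean of Bckdha, Bckdhb, Dbt and Dld) by sex and diet (x axes; circles male, triangles female), with means and SD. For Bckdk minus Ppm1k the restricted males sit between -0.81 and -0.51, above the Control males, and the female groups overlap.

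In females none of the 8 genes was called in any restricted diet. By edgeR, limma voom and DESeq2 the count was 0 in each, and over all genes tested the share called by edgeR was also 0%. At an unadjusted p under 0.05 there were 0 members, beside 2.84%, 4.03% and 3.82% of all genes in IleR, LeuR and ValR. Ppm1k had 57.6 at the lowest, 79.7 at the median and 87.4 at the highest CPM in Control females, 76.7, 89.0, 86.7, 65.8 and 77.3 in the 5 IleR females, 52.8 at the lowest, 67.1 at the median and 81.4 at the highest in LeuR and 49.2 at the lowest, 67.2 at the median and 91.6 at the highest in ValR. The groups overlapped, both at the low end, where Control 30 lay among the low LeuR and ValR libraries, and among the higher libraries of each diet. The differences from Control were 0.027 (95% interval -0.26 to 0.32) in IleR, -0.22 (-0.49 to 0.060) in LeuR and -0.20 (-0.47 to 0.081) in ValR on the log2 scale. Bckdha had 28.3 at the lowest, 29.6 at the median and 37.2 at the highest CPM in Control females, 29.5, 23.4, 26.9, 33.5 and 32.4 in IleR, 26.1 at the lowest, 35.8 at the median and 37.8 at the highest in LeuR and 28.4 at the lowest, 32.1 at the median and 37.8 at the highest in ValR, and all groups overlapped. Bcat1 had 79.4 at the lowest, 83.5 at the median and 160.4 at the highest CPM in Control females, 103, 90.6, 105, 123 and 125 in IleR, 81.0 at the lowest, 116 at the median and 133 at the highest in LeuR and 80.2 at the lowest, 103 at the median and 118 at the highest in ValR. Its highest female value was in Control 27, and the 95% intervals of its differences from Control were -0.22 to 0.47, -0.16 to 0.50 and -0.31 to 0.35. Bckdk stayed between 29.8 and 38.8 CPM over all 23 females, with group means of 34.7 in Control, 35.5 in IleR, 34.6 in LeuR and 34.1 in ValR. The other members had group means of 13.0 to 15.3 CPM for Bcat2, 21.1 to 22.0 for Bckdhb, 20.1 to 21.7 for Dbt and 113 to 121 for Dld. The kinase-to-phosphatase ratio had means of -1.14 ± 0.26 (SD, n = 6), -1.15 ± 0.24 (n = 5), -0.94 ± 0.35 (n = 6) and -0.97 ± 0.30 (n = 6) in Control, IleR, LeuR and ValR females, with overlap between all 4.

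Whether a diet effect differed between the sexes was tested as an interaction in 1 fit of all 37 libraries. By edgeR 0 of the 8 genes were called for any diet, while 0.0979% of all genes were called for IleR, 0.00445% for LeuR and 4.25% for ValR. At an unadjusted p under 0.05 there were 2 members in each, beside 19.1%, 13% and 26% of all genes. Limma voom called 0 members and DESeq2 called Ppm1k for IleR (adjusted p = 0.0491). Ppm1k in IleR came nearest, with a male difference -0.58 ± 0.19 from the female one on the log2 scale (edgeR adjusted p = 0.114). By edgeR and limma voom the fall of Ppm1k in males was thus not shown to differ from females in any diet, and by DESeq2 it differed in IleR alone. No score of regional content entered this fit. Since regional content differed by diet in males and overlapped between diets in females, a sex difference in diet effect and one in regional content cannot be told apart here.

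Within diets, several members followed the regional content of the library. In the female fit of diet and hindbrain score, 5 of the 8 genes had a slope that passed the test, where 45.3% of all genes tested did, 21.6% with a positive and 23.7% with a negative slope. Ppm1k fell by 0.053 log2 units for each unit of score (SE 0.011, edgeR adjusted p = 0.000477). The slope was positive for Bckdhb at 0.040 ± 0.010, Bcat2 at 0.035 ± 0.010, Bckdha at 0.029 ± 0.010 and Bckdk at 0.017 ± 0.0065 (SE; edgeR adjusted p = 0.00263, 0.00581, 0.0181 and 0.0379). Bcat1 at 0.039 ± 0.017 (edgeR adjusted p = 0.0684), Dbt at -0.014 ± 0.010 (0.268) and Dld at 0.0061 ± 0.0058 (0.422) did not pass. The phosphatase was thus lower, and the E1 subunits and the kinase higher, in female libraries with more hindbrain and less forebrain RNA. The Bckdk slope was lost in 9 of 31 alternatives and the Bckdha slope in 2 of 31. The 4 females with the highest scores, LeuR 45 (3.74), ValR 36 (0.26), LeuR 48 (-0.23) and Control 30 (-0.49), had 52.8, 49.2, 55.5 and 57.6 CPM of Ppm1k, which lies in the range of the restricted males. The 2 females with the next highest scores, IleR 41 (-1.01) and Control 29 (-2.16), had 65.8 and 85.8 CPM, above that range, and the one after them, ValR 31 (-2.75), had 61.3 CPM, inside it. Without Control 30, 3 slopes were called, those of Ppm1k, Bckdhb and Bcat2, and the same 3 when both libraries farthest from the median score were left out. After the mean of each diet was taken off, Ppm1k and Bckdha had a Pearson r of -0.84 over the 23 female libraries and Ppm1k and Bckdhb one of -0.76; the libraries share their regional content, and no test is attached.

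In males the slope on the score within diets was called for 0 of the 8 genes by edgeR and by limma voom, and for 2 by DESeq2, Bckdhb and Dld, where 0.797% of all genes passed by edgeR. At an unadjusted p under 0.05 there were 3 members, beside 16.2% of all genes. The Ppm1k slope in males was -0.023 ± 0.018 (SE; 95% interval -0.062 to 0.015). Without LeuR 21, the one restricted male library with a low score, -4.24, the slope was -0.051 and was not called either (edgeR adjusted p = 0.690). LeuR 21 had 53.3 CPM of Ppm1k, level with the other LeuR males, while Control 4, with a score of -4.96, had 73.0. The mean log2 CPM of the forebrain markers was lower in LeuR 21 than in Control 4, 3.73 against 4.89, and it was below that of every Control male in every restricted male library. Bckdha in LeuR 21 was 36.7 CPM, above all Control males, and Bcat1 and Bckdhb were the lowest of their LeuR group, at 146 and 21.4 CPM.

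When the hindbrain score was added to the male fit, the Ppm1k differences became -0.33 in IleR, -0.46 in LeuR and -0.22 in ValR and were no longer called (edgeR adjusted p = 0.688, 0.429 and 0.778). The sign stayed below 0 in each. In that fit 0.0135%, 0.0676% and 0% of all genes were called, against the larger shares given above without the score. Bckdha became 0.14 in LeuR and 0.12 in ValR, and Bckdk in ValR stayed at 0.21, without a call for any of them. Over all alternatives the ValR estimate ran from 0.035 to 0.26 for Bckdk and from 0.042 to 0.41 for Bckdha. With both sexes in 1 fit, where the female libraries help to set the slope, the male Ppm1k differences were -0.10 in IleR, -0.27 in LeuR and 0.029 in ValR (edgeR adjusted p = 0.845, 0.181 and 0.974), and 0.00445%, 8.45% and 0% of all genes were called. There the ValR difference was on the other side of 0, and Bcat2 was called lower in LeuR, at -0.45 (edgeR adjusted p = 0.0405) in a fit chosen after the data were seen. With the astrocyte markers as the covariate Ppm1k was still called, at -0.45, -0.58 and -0.37, and Bckdha was not. The oligodendrocyte markers summed to 2464 to 5179 CPM in Control males against 4960.3 to 7302, 3502 to 8828 and 4554 to 7586 in IleR, LeuR and ValR; 0 of the 6 were called. The 6 neuron markers summed to 3297 to 4757 CPM in Control males against 2926 to 3152, 2752 to 3246 and 3025 to 3802, so that IleR and LeuR lay below Control, and 1 was called higher and 1 lower in each diet. The 6 microglia markers summed to 151 to 170.0 CPM in Control males against 124 to 182, 133 to 154 and 90.5 to 143; 2 were called lower in IleR, 0 in LeuR and 3 in ValR, and 5 had a called negative slope on the hindbrain score in females. No marker of these 3 lists was at 0 in a whole group, and their part in the results was not tested.

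**Figure D5:**
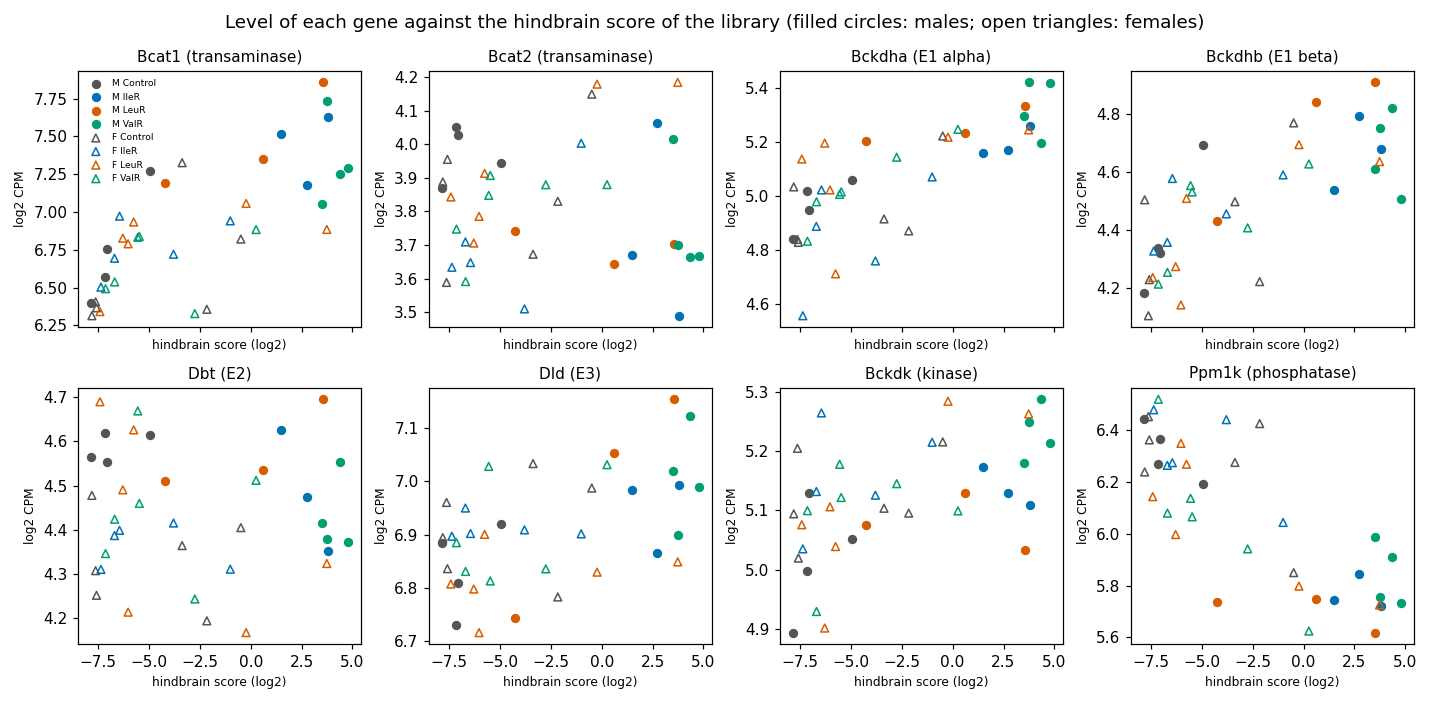
Log2 CPM of each gene (y axis) against the hindbrain score of the library (x axis, log2) for males (filled circles) and females (open triangles), by diet (colour). Ppm1k falls from left to right over the female triangles and the restricted males lie at its right-hand end, except LeuR 21, which is low at a score of -4.24.

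The genes downstream of the shared steps rose where they passed the test in males. Of the 5 genes of the leucine branch, 3 rose in IleR, 1 in LeuR and 4 in ValR, and none fell, where 6.63%, 3.81% and 11.1% of all genes rose; the median log2 fold change of the list was 0.38, 0.23 and 0.42. Mccc1 and Mccc2, the subunits of methylcrotonyl-CoA carboxylase, rose by 0.50 and 0.48 in IleR (edgeR adjusted p = 0.00632 and 0.0117) and by 0.49 and 0.49 in ValR (0.00289 and 0.00448). Auh, the hydratase of the same branch, rose by 0.42 in ValR (edgeR adjusted p = 0.00340). Of the 12 genes of the valine and isoleucine branches, 4 rose in IleR, 1 in LeuR and 4 in ValR, with medians of 0.26, 0.18 and 0.21; against the same shares of all genes, the LeuR count is near the background. Hibch and Hibadh, enzymes of valine breakdown, rose by 0.53 and 0.45 in IleR (edgeR adjusted p = 0.00630 and 0.00813), and Hibch rose by 0.53 in LeuR (0.0125). In ValR males Hibch and Hibadh rose by 0.33 and 0.43 (edgeR adjusted p = 0.0318 and 0.00420). LeuR was the diet with the fewest genes called in either branch, and also the one with the fewest called over all genes. In females 0 genes of these lists were called in any diet, and on the hindbrain score 5 of the 5 genes of the leucine branch and 6 of the 12 of the valine and isoleucine branches had a positive slope that passed, where 21.6% of all genes did.

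In BCAA transport and the related complexes genes were called in both directions in males, and the lists are small against a background of 15.3%, 10.1% and 23.5% of all genes called in IleR, LeuR and ValR. Of the 6 transporter genes, 2 fell in IleR, 1 fell in LeuR, and 1 rose and 2 fell in ValR. Slc7a8, a neutral amino acid exchanger, changed by -0.69 in IleR, -0.81 in LeuR and -0.66 in ValR (edgeR adjusted p = 0.0318, 0.0234 and 0.0187). Slc25a44, which carries BCAA into the mitochondrion, changed by -0.47 in IleR and -0.47 in ValR (0.0218 and 0.0100, edgeR adjusted p). Slc43a2, a BCAA uniporter, rose by 0.58 in ValR (edgeR adjusted p = 0.00466). Of the 8 genes of the other complexes that use E3, 0 or 1 was called in each diet, near the background in LeuR and below it in IleR and ValR. Gldc of the glycine cleavage system changed by -1.48 in LeuR (edgeR adjusted p = 0.0209). In IleR it changed by -1.08 and just missed the threshold (edgeR adjusted p = 0.05003). Ogdh of 2-oxoglutarate dehydrogenase rose by 0.27 in ValR (edgeR adjusted p = 0.0443). Among the 7 kinases and phosphatases of pyruvate dehydrogenase, the sister complex, 1 rose and 2 fell in IleR, 1 fell in LeuR, and 3 rose and 2 fell in ValR. There the phosphatase gene Pdp1 changed by -1.497, -1.36 and -1.74 in IleR, LeuR and ValR (edgeR adjusted p = 0.00443, 0.0135 and 0.000523). The kinase gene Pdk2 rose by 0.66 and 0.90 in IleR and ValR, and the kinase gene Pdk1 changed by -0.65 and -0.67. Pdp1 and Pdk2 had called slopes on the hindbrain score in females too, -0.17 and 0.12 per unit, of the sign of their male differences. Of the 5 genes that supply lipoate and thiamine, the cofactors of E2 and E1, Lipt1 alone was called, in ValR, at -0.66 (edgeR adjusted p = 0.0299), a share below the background of that diet.

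The genes whose level followed each member most closely were taken over the 23 female libraries after the mean of each diet was removed, among the 11031 genes whose mean log2 CPM was 3 or more. Pearson correlations are given as a description, since the libraries share depth and regional content. Ppm1k went most closely with Rab11fip4, Csmd2 and Stxbp5 (r from 0.94 to 0.95), and Bcat1 with Dnajc15, AI854703 and Ddx25 (0.92 to 0.93). Bckdhb went with Pcx, Capn2 and Ggps1 (0.88 to 0.90), Bckdha with Vasp (0.85) and Eci1 (0.84) and Bcat2 with Slc39a13, Alkbh7 and Kdsr (0.83 to 0.88). For Dld the closest were Pex13, Hcn2 and Slc25a25 (0.80 to 0.84), for Bckdk Prkab1, Slc39a7 and Adam11 (0.80 to 0.82) and for Dbt Sik3, Trim13 and Sox8 (0.73 to 0.77). No member was among the closest genes of another, and Dbt had the lowest closest correlations of the 8.

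The start of Ppm1k is shown because it was the member called in every restricted diet in males. The RefSeq sequence (GRCm38.p6) holds the 300 bases around the annotated start on the minus strand, chr6:57535438-57535737.

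Ppm1k promoter: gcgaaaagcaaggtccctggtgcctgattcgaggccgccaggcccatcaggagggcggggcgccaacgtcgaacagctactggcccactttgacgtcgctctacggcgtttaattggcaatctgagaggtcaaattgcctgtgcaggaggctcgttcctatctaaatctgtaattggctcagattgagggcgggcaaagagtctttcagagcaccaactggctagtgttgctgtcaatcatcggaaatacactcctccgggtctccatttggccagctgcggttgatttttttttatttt

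Neither the E-box CACGTG nor TGATGNAAN, the core of the amino acid response element bound by ATF4, was found on either strand of this window, and no letter is therefore in capitals. Promoters were listed for 7 of the 8 members, Dbt being the exception, and 0 of their 10 windows held CACGTG or TGATGNAAN, against 7.15% and 3.95% of the 32851 promoters listed. The absence of these letters says nothing of binding outside the windows or to other sequences.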

How the data were processed

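Brain RNA of 37 3xTg mice, grouped by diet and sex as labelled, was analysed. The labels' extraction text names liver while the tissue label is brain, and the 6 neuron markers summed to 2752 CPM or more in every library. The methods name the left hemisphere. The labels describe polyA enrichment in one place, and a total RNA kit is named in another. The authors aligned the reads to GRCm38 and deposited expected counts per Ensembl gene, without normalization, and their methods state that outlying libraries were removed. Aligner and counter versions are not given in the sources used here. The authors' tables of their own comparisons (log2 fold changes and p-values) were not used.

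Expected counts were rounded. A gene was tested where all libraries of any 1 diet had a count of 1 or more. Tests were run in R 4.3.3 with edgeR 4.0.16 (TMM scaling, quasi-likelihood F-test), the 4 diets of a sex sharing 1 fit, with Benjamini-Hochberg adjustment over all genes and a cut-off of 0.05. The hindbrain score entered a second fit beside diet, and the interaction used all 37 libraries. Log2 CPM used a prior count of 2, and positions and lengths are from GENCODE M21. Alternatives were limma 3.58.1 voom, DESeq2 1.42.0, RLE scaling, other filters and covariates, Control and 1 diet alone, and leaving out each library in turn. The tests were tested on simulated data. P-values measure the spread between these libraries, taken as independent. The paper states that mice were assigned to diets by cage. No label ties the libraries to cages, litters or batches, so shared cages could not be allowed for. All 73 pairs of libraries within groups differed by more than sampling noise. Totals were 10672600 to 25722300 counts per library.

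The members and lists were chosen with earlier results of these data known. Named were all 8 members, at most the 3 genes with the smallest adjusted p of each pathway list among those called against Control, and the 3 genes most like each member in females; some items that these rules pick are not reported here.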

Additional observations from a re-analysis of the deposited data

Results flagged for a closer look

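In 7 of 72 groups of values (a member or a log2 ratio in the libraries of 1 sex and diet), the highest or lowest library stood apart from the others by Dixon's 95% limit, which chance passes in about 1 group in 20. Among the transaminases, Bcat1 was at 81.0 CPM in LeuR female 44 and from 111 to 133 CPM in the other LeuR females, and Bcat2 was at 16.1 CPM in ValR male 12 and from 12.6 to 12.9 CPM in the other ValR males. Of the regulators, Bckdk was at 30.4 CPM in ValR female 33 and from 34.2 to 36.1 CPM in the others of that group. Ppm1k was at 57.6 CPM in Control female 30 and from 75.4 to 87.4 CPM in the other Control females. The E3 gene Dld was at 123 CPM in IleR female 38, with the others between 119 and 120.0 CPM. Both ratios that stood apart were in Control females. The log2 ratio of Bcat1 to Bcat2 was 3.65 in Control 27 and from 2.41 to 2.82 in the others, and that of Bckdk to Ppm1k was -0.64 in Control 30 and from -1.34 to -1.14 in the others. The hindbrain scores of these libraries were -7.42 for LeuR female 44, 3.52 for ValR male 12, -6.69 for ValR female 33, -6.70 for IleR female 38, -0.49 for Control female 30 and -3.38 for Control female 27, and their part in the values was not tested.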

How the results depend on the processing

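Of 350 recomputed counts of called members, 322 were within 1.5 times the count reported. Most comparisons had 0 members called in the reported fit, and counts that stayed at 0 are among the 322. The share therefore says little of the comparisons with a call. All 252 recomputed differences in log2 ratios moved by less than the SD between libraries. Their alternatives were another prior count or 1 library left out, which can hardly move a mean that far, so stability was not measured by this. In IleR males 1 member was called in the reported fit and 2 with limma voom or DESeq2, which added Bcat1. The 2 called in LeuR males became 1 with RLE scaling or no filter and 0 with only Control and LeuR fitted. With the hindbrain score as a covariate 0 members were called in IleR, LeuR or ValR males, and with the astrocyte score 1 in LeuR and 1 in ValR. Covariates chosen after seeing the data gave 0 in each diet with the forebrain score, and 0, 1 and 0 in IleR, LeuR and ValR males with the hindbrain score in 1 fit of both sexes. In that last fit Ppm1k in ValR males turned to 0.029 on the log2 scale (edgeR adjusted p = 0.974). Without each library in turn the counts ran from 1 to 2 in IleR males and from 1 to 5 in LeuR males. Without Control 4 they were 2 and 4, and the IleR fit added Bcat1. The LeuR count was 5 without LeuR 21 and 1 without Control 1, 3 or 5 or LeuR 19 or 20. For the hindbrain slope DESeq2 called 2 members in males, against 0. In females the count of 5 became 3 without the 2 libraries farthest from the median score, and ran from 3 to 6 with 1 library left out: it was 3 without Control 30 and 6 without Control 27. DESeq2 called 1 member, Ppm1k, for the IleR-by-sex interaction, against 0. The cause of these shifts was not tested. By the longest coding transcript (chosen after seeing the data) Dbt was lowest per length in 5 of 8 groups, against 0 by merged exons. No paired analysis was possible because each library carried its own number and none was shared between groups. Each of the 8 genes had at least 148 counts in every library, and groups held 3 to 6 libraries.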
